A study of Mus musculus with 12 samples.

Results

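The nuclei described here were chosen by a gate on smooth muscle transcripts, made to find vascular smooth muscle cells in mouse adipose tissue, and 264 of the 106898 kept nuclei met it. A nucleus was kept with at least 300 genes and at most 10% of its UMIs (unique molecular identifiers, which count captured transcripts) from mitochondrial genes. It was a member when its UMIs of Myh11 and Acta2 together came to at least 2 with at least 1 of Myh11, were no fewer than those of the pericyte genes Rgs5, Kcnj8, Abcc9 and Steap4, and were more than those of 10 genes of other cell types (Adipoq, Plin1, Acsl1, Flt1, Ptprb, Pdgfra, Dcn, Mrc1, Ttn and Epcam). The members are called the Myh11 gate below. Notch3, the third marker given for vascular smooth muscle and the only one outside the gate, had a UMI in 110 of the 264; a nucleus without a UMI may still express it.

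The series holds 12 single-nucleus RNA libraries, 1 per group, from male C57BL/6J mice on normal chow. The depots are labelled mPRAT, lPRAT, iBAT and iWAT, abbreviations in common use for medial perirenal, lateral perirenal, interscapular brown and inguinal white fat. By the labels' titles, mice housed at 22 °C were sampled at 1 month (mPRAT, iBAT), 2 months (mPRAT, iBAT, lPRAT) and 6 months (all 4 depots). Cold-exposed mice were 6 months old and spent 3 days at 4 °C (mPRAT, iBAT, iWAT). The age field of the same labels reads 4, 8 and 16 weeks, so the oldest group is called 6 months by its title only. The number of animals behind a library is not stated. Each group is 1 library, so differences between single libraries were not tested, and no model over depot, age and cold was run; the 95% intervals below are exact and cover counting error alone.

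Vascular smooth muscle cells wrap arteries, arterioles and veins and set their width. Calcium entering through voltage-gated channels, or released from stores, lets myosin light chain kinase (Mylk) switch on smooth muscle myosin (Myh11), which pulls on smooth muscle actin (Acta2). Myocardin (Myocd) with serum response factor drives this contractile program, and NOTCH3 is the receptor through which endothelial ligands mature and maintain arterial smooth muscle. Smooth muscle also lines hollow organs outside vessels, where gamma enteric actin (Actg2) is abundant. Pericytes, their neighbours on capillaries, carry NOTCH3 and PDGFRB but little of the contractile machinery.

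Library totals ran from 5461133 to 87035783 UMIs, and the median kept nucleus held from 880 to 6300 UMIs. The mitochondrial limit removed 66.0% of the barcodes of the cold mPRAT library, 22.1% of mPRAT at 2 months, 21.4% of lPRAT at 2 months and at most 7.42% elsewhere. Of 117275 distinct barcodes 1746 occurred in more than 1 library, and no member shared its barcode with a member of another library. At the edges of the gate, 34 members had the minimum of 2 UMIs of Myh11 and Acta2, and 65 nuclei met all other limits with a single Myh11 UMI. In 7 members the pericyte genes equalled Myh11 and Acta2, and in 6 nuclei just outside they were 1 UMI higher. In 29 members the gene sum was 1 UMI above the other cell types' genes, and in 16 nuclei just outside it equalled them.

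Over all their libraries, members were a larger share of mPRAT than of the other depots. They made up 185 of 26740 kept nuclei in mPRAT (0.692%, 95% Clopper-Pearson interval 0.596 to 0.799%), 48 of 57684 in iBAT (0.0832%, 0.0614 to 0.110%), 24 of 13229 in iWAT (0.181%, 0.116 to 0.270%) and 7 of 9245 in lPRAT (0.0757%, 0.0304 to 0.156%). The interval of mPRAT lay above those of the other depots in these sums, which pool unlike ages. Without its 1-month library the share in mPRAT was 98 of 21349 (0.459%, 0.373 to 0.559%). At 6 months and 22 °C, the condition that all 4 depots share, mPRAT (0.368%, 0.265 to 0.497%) overlapped iWAT (0.181%, 0.101 to 0.299%) and lay above lPRAT (0.101%, 0.0369 to 0.219%) and iBAT (0.0189%, 0.00516 to 0.0485%). Within mPRAT there were 87 members at 1 month (1.61%, 1.29 to 1.99%), 26 at 2 months (0.422%, 0.276 to 0.618%), 42 at 6 months (0.368%, 0.265 to 0.497%) and 30 in the cold (0.793%, 0.536 to 1.13%). The 1-month library stood above the other 3, whereas 2 and 6 months overlapped. Without the mitochondrial limit the cold library had 39 members of 11134 nuclei (0.350%), close to the 22 °C library at the same age. In iBAT there were 28 members at 1 month (0.246%), 13 at 2 months (0.104%), 4 at 6 months (0.0189%) and 3 in the cold (0.0237%). iWAT had 15 members at 22 °C (0.181%) and 9 in the cold (0.182%), and lPRAT had 1 at 2 months and 6 at 6 months. Paired by depot, the share was higher in the cold than at 22 °C in 3 of 3 depots, in 2 of 3 without the mitochondrial limit and in 1 of 3 as a share of the vessel-wall gates given next. The exact two-sided sign-flip p over the 3 depots was 0.25, 0.75 and 1 in these 3 tests, and 0.25 is the smallest that 3 pairs allow. With that floor, 1 library per depot and condition, and 4 and 3 members in iBAT, these tests cannot decide whether the share differs in the cold.

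The shares rest on all kept nuclei, of which adipocytes are the bulk, so they were also set against the vessel wall. As a share of members plus nuclei of like gates for pericytes and endothelial cells, the Myh11 gate held 15.6% (12.7 to 18.9%) in mPRAT at 1 month, 8.15% at 2 months, 7.92% at 6 months and 17.6% (12.2 to 24.2%) in the cold. In iBAT the same share was 2.18%, 1.44%, 0.656% and 0.554%, and in iWAT 4.85% at 22 °C and 2.27% in the cold. In lPRAT it was 2% at 2 months and 2.16% at 6 months. mPRAT was therefore highest on both denominators. At 6 months and 22 °C, however, its interval (5.77 to 10.6%) overlapped that of iWAT (2.74 to 7.88%) on this denominator too. Of the 185 mPRAT members, 100 belonged to cluster 0 and 30 to cluster 2 of the clusters described below, where Notch3 was rare. Clusters 1 and 4, which carried Notch3, held 41 of 26740 kept nuclei in mPRAT and 47 of 57684 in iBAT. In iWAT they held 15 of 13229, and in lPRAT 3 of 9245. Whether mPRAT stays highest without clusters 0 and 2 was not tested.

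**Figure D1:**
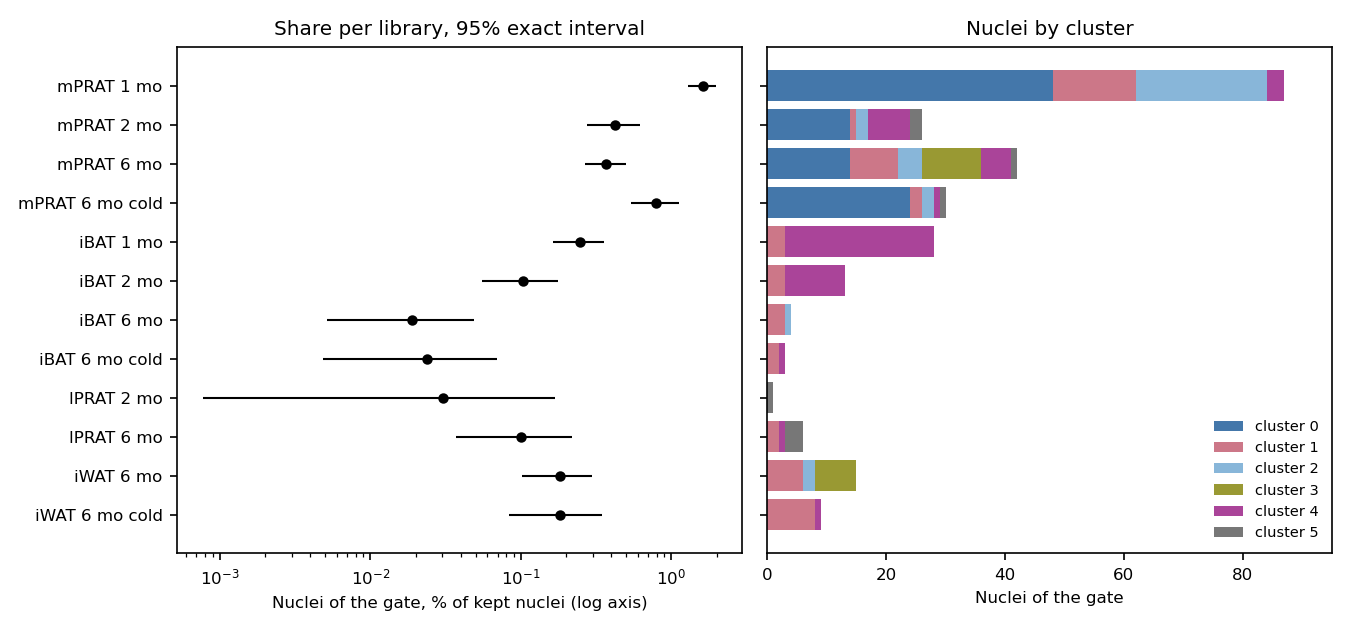
Left, nuclei of the Myh11 gate as a percentage of kept nuclei in each library on a log axis, with exact 95% intervals for counting error. Right, the same nuclei as counts, coloured by the 6 clusters described in the text: cluster 0 appears in the 4 mPRAT libraries only, and cluster 4 makes up 25 of the 28 nuclei of iBAT at 1 month.

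Notch3 split the gate by depot. A Notch3 UMI was present in 48 of 48 members from iBAT (100%, 92.6 to 100%), 16 of 24 from iWAT (66.7%), 2 of 7 from lPRAT and 44 of 185 from mPRAT (23.8%, 17.8 to 30.6%). After each nucleus was thinned to 500 UMIs, which left out no member, the shares were 81.3% in iBAT, 37.5% in iWAT and 13.5% in mPRAT. Nuclei of an adipocyte gate, which should lack the transcript, had a Notch3 UMI in 2.73% of cases in iBAT and 2.08% in mPRAT. Their median depth was 2345 and 3093 UMIs, against 1411 in the members of iBAT and 1568 in those of mPRAT. Lsamp, a cell adhesion molecule best known in the nervous system, ran the other way: it had a UMI in 87 of 185 members from mPRAT and in 1 of 48 from iBAT. The adipocyte gate had Lsamp in 2.04% and 1.75% of nuclei in these depots. Over the whole gate 103 members had Notch3 without Lsamp, 82 had Lsamp without Notch3, 7 had both and 72 had neither.

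The 264 members fell into 6 clusters when grouped on variable genes that excluded the genes of the gate. The levels that follow are a description of those clusters, with no test, since the same genes formed them. At resolutions of 0.3 and 1 the largest block of cluster 1 held 69.2% of its nuclei, and with another random seed 78.85%. Cluster 4 stayed whole at 0.3 and with the other seed, but at resolution 1 its largest block held 63.0%, so the border of these clusters depends on the setting. Levels are summed UMIs scaled to a total of 1000000 (CPM), and a count of nuclei is the number with at least 1 UMI.

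Cluster 0, with 100 nuclei, came only from mPRAT: 48 at 1 month, 14 at 2 months, 14 at 6 months and 24 in the cold. Its leading genes were Lsamp, Pcp4, Luzp2 and Otogl. Lsamp stood at 15302 CPM with a UMI in 81 of 100 nuclei, against 65.0 CPM in all other members. The smooth muscle program was present: Myocd had 1327 CPM in 73 nuclei, Mylk 2478 CPM in 90 nuclei and Acta2, a gene of the gate, 1810 CPM in 79 nuclei. Notch3 was found in 3 of the 100 nuclei at 23.2 CPM. Actg2, the actin of visceral smooth muscle, stood at 362 CPM in 44 nuclei, and Tbx18, a transcription factor of ureteric and mural mesenchyme, at 520 CPM in 47 nuclei. The RNA-binding proteins Rbfox3 (1030 CPM) and Rbm24 (1369 CPM) and the adhesion plaque protein Pgm5 (1466 CPM) were also high here. On Notch3 the data go against the vascular label for this cluster, and no other name is given to it.

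Cluster 2, with 33 nuclei, 22 of them from mPRAT at 1 month, resembled cluster 0 in several of these genes. Actg2 stood at 215 CPM, Rbfox3 at 712 CPM, Rbm24 at 489 CPM and Myocd at 754 CPM, and Notch3 had a UMI in 4 nuclei. In other genes the 2 clusters differed. Lsamp had a UMI in 3 of the 33 nuclei of cluster 2 and in 81 of 100 in cluster 0. Cnn1 had a UMI in 0 and 15 nuclei of these clusters. At a coarser resolution clusters 0 and 2 merged. Its leading genes came from few nuclei: Slc14a2, a urea transporter, had 242 UMIs in 5 nuclei, and the kidney transcription factors Pax2 and Pax8 had UMIs in 4 and 3 nuclei. The list of 9 kidney and other epithelial markers outside the gate had a summed level of 298 CPM in cluster 2, between 9.81 and 125 CPM in the other 5 clusters and, over all kept nuclei, 735 CPM in mPRAT at 1 month and 956 CPM at 2 months, with at most 139 CPM in the other 10 libraries. The part of kidney transcripts in these values was not tested.

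Clusters 1 and 4 carried Notch3 together with smooth muscle genes. Cluster 1, with 52 nuclei, drew on every depot: 25 from mPRAT, 14 from iWAT, 11 from iBAT and 2 from lPRAT. It was led by Kcnab1, a beta subunit of voltage-gated potassium channels (4123 CPM, 46 nuclei), and further by Itga8, an integrin of contractile cells (1143 CPM, 30 nuclei), Ryr2, a calcium release channel (1287 CPM, 28 nuclei), and Sorbs2 and Ctnna3. Notch3 stood at 1617 CPM in 42 nuclei, and the Notch target genes Hey2 and Heyl at 161 and 135 CPM. Igkc, an antibody light chain, also ranked among its leading genes, with 54 UMIs in 4 nuclei, and the macrophage list summed to 1168 CPM here against 360 CPM in all members. Cluster 4, with 54 nuclei, came from iBAT (36) and mPRAT (16) with 1 each from lPRAT and iWAT. Notch3 was at 3346 CPM in 53 of its nuclei, but Myocd stood at 443 CPM in 16 nuclei, and Kcnab1 and Actg2 had no UMI. Its leading genes included Chn1, a Rac-regulating protein, and Tbx5, a limb and heart transcription factor (554 CPM, 23 nuclei). Pdgfrb, a receptor of mural cells, stood at 689 CPM (13.9 in cluster 0, 144 in cluster 1), Rgs5, a gene of the gate, at 467 CPM, and the soluble guanylate cyclase subunits Gucy1a1 and Gucy1b1 at 529 and 394 CPM. The summed list of 8 pericyte genes outside the gate was 529 CPM in cluster 4, 618 CPM in cluster 1 and 334 CPM in cluster 0. It was 363 CPM in all members and 334 CPM in the nuclei of the pericyte gate, so this list did not set pericytes apart from members.

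Clusters 3 and 5 had no Myocd UMI. Cluster 3, with 17 nuclei from mPRAT at 6 months (10) and iWAT at 6 months and 22 °C (7), had Acta2 in 2 nuclei. It was led by Csmd1 and Pcdh15, each with UMIs in all 17 nuclei, and by Cr2, the complement receptor of B cells and follicular dendritic cells, and the lymphoid chemokine Ccl21a. Vcam1 stood at 402 CPM in 10 nuclei and Cxcl12 at 716 CPM in 12 nuclei. The summed list of 7 lymphocyte genes was 275 CPM in cluster 3, 821 CPM in cluster 1 and at most 91.1 CPM in the other clusters, and over all kept nuclei it was 2317 CPM in mPRAT at 6 months, 307 CPM in iWAT at 22 °C and at most 106 CPM in the other libraries. Cluster 5, with 8 nuclei, had no Acta2 UMI, and 1 nucleus with Notch3. It was led by Sntg1, Rbfox1, Gpm6a and Flrt2, with Wt1, a mesothelial transcription factor, at 831 CPM in 6 nuclei. The summed mesothelial list was 2326 CPM in cluster 5 and at most 51.0 CPM in the other 5 clusters. Mylk was found in 12 nuclei of cluster 3 and 3 of cluster 5, at 177 and 540 CPM. Other contractile genes were nearly absent or present, depending on the gene. Tagln had a UMI in 1 nucleus of cluster 3 and none of cluster 5, and Cnn1 in no nucleus of either. Cald1, which encodes caldesmon, stood at 775 and 1412 CPM in clusters 3 and 5, against 1151 CPM in cluster 0 and 773 CPM in the pericyte gate. Synpo2 was at 932 and 83.1 CPM, against 2218 CPM in cluster 0. Pdlim3 was at 373 CPM in cluster 3 and 561 CPM in cluster 0, with no UMI in cluster 5.

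**Figure D2:**
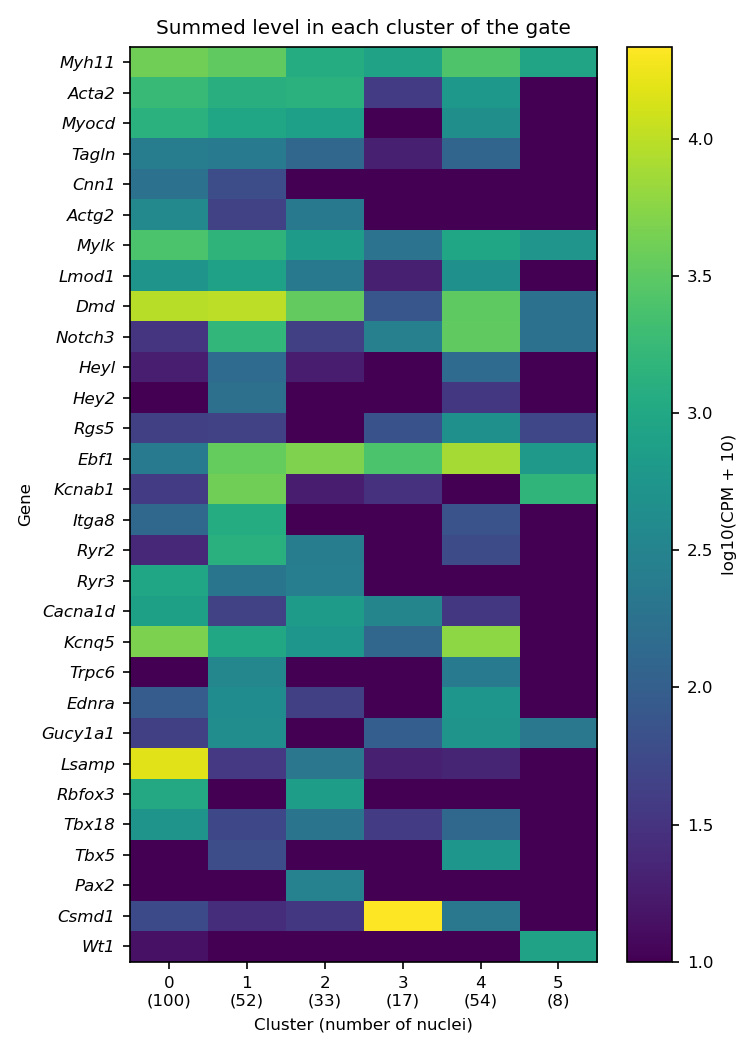
Summed level of 30 genes (rows) in the 6 clusters of the Myh11 gate (columns, with the number of nuclei), as log10(CPM + 10). Notch3 is bright in clusters 1 and 4 (1617 and 3346 CPM) and dark in cluster 0 (23.2 CPM), where Lsamp (15302 CPM) is brightest, and Myocd is at the floor in clusters 3 and 5.

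Clusters 0, 1 and 4, the largest, were compared with each other; clusters 2, 3 and 5 were left out of these counts. Of the 26 contractile genes outside the gate, all with at least 20 UMIs in the members, 12 were highest in cluster 0, 11 in cluster 1 and 3 in cluster 4. Of all 5718 genes with as many UMIs, 33.5% were highest in cluster 0, 31.2% in cluster 1 and 35.3% in cluster 4, and several listed genes overlapped between clusters. The genes highest in cluster 0 included Tagln (241 CPM, against 220 and 111 CPM in clusters 1 and 4), Cnn1 (167, 50.8 and 0 CPM), Mylk, Myl9, Tpm2 and Des. Those highest in cluster 1 included Lmod1, which nucleates actin filaments (796 CPM, against 515 and 467 CPM in clusters 0 and 4), Ldb3 (618, 283 and 209 CPM), Smtn and Tpm1. Tagln lay within counting error between clusters 0 and 1. Dmd, which encodes dystrophin, overlapped between cluster 0 (9609 CPM, 95% interval 9200 to 10032) and cluster 1 (9948 CPM, 9387 to 10533) and was lower in cluster 4 (3198 CPM).

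Of 25 calcium and ion channel genes with at least 20 UMIs, 8 were highest in cluster 0, 8 in cluster 1 and 9 in cluster 4 among these 3 clusters. These counts are close to the shares of all genes given above, so the list as a whole favoured no cluster. Single genes differed in level. Ryr3, a release channel, stood at 947 CPM in cluster 0 and 186 CPM in cluster 1 with no UMI in cluster 4, whereas Ryr2 stood at 13.9, 1287 and 49.2 CPM. Of the pore subunits of L-type calcium channels, Cacna1d was at 779 CPM in cluster 0 and at 33.9 and 24.6 CPM in clusters 1 and 4, while Cacna1c was at 2343 CPM in cluster 0 and at 5562 and 8438 CPM in clusters 1 and 4. The receptor-operated channel Trpc6 had no UMI in cluster 0 (up to 13.9 CPM allowed by 3 UMIs) and stood at 339 and 234 CPM in clusters 1 and 4. Kcnq5, a potassium channel, was high in clusters 0 and 4 (4714 and 5818 CPM) and lower in cluster 1 (948 CPM).

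Of 8 constrictor receptors with at least 20 UMIs, 5 were highest in cluster 1 and 3 in cluster 4; of 18 genes of the dilator pathway, 8 were highest in cluster 0, 2 in cluster 1 and 8 in cluster 4 among these 3 clusters. A few of them were higher still in another cluster: Npr3, a natriuretic peptide receptor, stood at 1392 CPM in cluster 2 and 83.5 CPM in cluster 0. The endothelin receptor Ednra stood at 83.5 CPM in cluster 0 and at 415 and 554 CPM in clusters 1 and 4, and the alpha-adrenergic receptor Adra1a was at 55.7, 262 and 49.2 CPM in clusters 0, 1 and 4. The angiotensin receptor Agtr1a was highest in cluster 4 (517 CPM), intermediate in cluster 0 (237 CPM) and had 2 UMIs in cluster 1 (16.9 CPM). In the nitric oxide pathway, Gucy1a1 stood at 32.5, 423 and 529 CPM in clusters 0, 1 and 4, and its downstream kinase Prkg1 at 2287, 7890 and 11464 CPM. Pde5a, the phosphodiesterase that breaks down cyclic GMP, had the opposite order, at 561, 398 and 135 CPM.

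Genes that record position along the body were read in clusters 1 and 4 pooled, which the depots fill unequally: 25 and 16 nuclei from mPRAT, 11 and 36 from iBAT, 14 and 1 from iWAT. Hoxc4 had 12 UMIs in 9 of 41 nuclei from mPRAT (167 CPM), 16 UMIs in 9 of 15 from iWAT (405 CPM) and 3 UMIs in 2 of 47 from iBAT (35.3 CPM). Hoxc8, Hoxc9 and Hoxa9 had UMIs in mPRAT and iWAT and none in iBAT, where 3 UMIs would be 35.3 CPM. Tbx15, a T-box transcription factor, had 11 UMIs in iBAT, 10 in iWAT and none in mPRAT. Within cluster 4 alone mPRAT and iBAT overlapped in Hoxc4 (225 CPM, 82.7 to 490, and 39.3 CPM, 4.76 to 142) and Hoxa9 (150 CPM, 40.9 to 385, and no UMI, up to 72.5), and Hoxc9 had no UMI in either. In cluster 0 Hoxd10 and Hoxd11 had 6 and 8 UMIs, in 6 nuclei each, and both had none in clusters 1 and 4.

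Nuclei of the pericyte gate (1958 in all) were the nearest neighbours of the members and served as the reference in the 5 libraries with at least 20 nuclei of both gates. The ratio of CPM, with 10 CPM added to each side, was taken in every library, and the median over libraries is given; since the gate genes chose both sides by this contrast, it is a description. Of 7271 genes with at least 100 UMIs, 6.01% had a median at least 2-fold higher in the members and 11.6% at least 2-fold lower. Of the 26 contractile genes outside the gate, 24 had enough UMIs, 20 of these were at least 2-fold higher, none was as much lower, and their median log2 ratio was 2.49 against -0.18 for all genes.

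Myocd had the largest ratio among the listed genes. It stood at 1264, 1646, 569 and 1072 CPM in the members of mPRAT at 1, 2 and 6 months and in the cold, and at 1096 CPM in iBAT at 1 month, against 0 to 15.4 CPM in the pericyte gate. All 5 libraries had the members higher, with a median log2 ratio of 6.15 (range 5.65 to 7.37). Lmod1 had a median of 4.41 (3.42 to 5.11), Tagln, an actin-binding protein, 3.66 (2.58 to 4.80), and Mylk 2.16 (1.20 to 3.39). Among channels, the sodium-calcium exchanger Slc8a1 had a median of 4.10 (1.27 to 6.87), the beta subunit Cacnb2 4.02 (2.91 to 5.24) and Ryr3 5.48 (2.46 to 6.37). Of 24 calcium and ion channel genes 11 were at least 2-fold higher and 2 at least 2-fold lower, among them Trpc6 (median -2.28).

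Notch3 did not separate the gates. Its members' level was 405, 648, 428 and 146 CPM in the 4 mPRAT libraries and 3267 CPM in iBAT at 1 month, against 2073, 630, 756, 341 and 2063 CPM in the pericyte gate of the same libraries. In 3 of the 4 mPRAT libraries it was lower in the members, and the median log2 ratio was -0.81 (range -2.33 to 0.66). Of 9 Notch pathway genes with enough UMIs, none was at least 2-fold higher and 4 were at least 2-fold lower: Notch1, Notch4, Heyl and Hes1. Pdgfrb was lower in all 5 libraries (median -1.53), as were Ebf2, a transcription factor of brown adipose lineage and mural cells (-2.06), and Vegfa (-1.10). In mPRAT, 100 of the 185 members belong to cluster 0, where 3 of 100 nuclei had a Notch3 UMI. Clusters 1 and 4 had Notch3 in 42 of 52 and 53 of 54 nuclei. These ratios therefore mix clusters that differ in Notch3 and Pdgfrb, and no cluster was set against the pericyte gate alone.

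By size alone, the 10 highest genes were Lsamp, Rbm24, Dpp6, Myocd, Rbfox3, Luzp2, Synpo2, Kcnip1, Cacna2d3 and Gm20754. Lsamp had a median of 6.93 but lay at -0.51 in iBAT, and Dpp6, Rbfox3, Luzp2, Kcnip1, Cacna2d3 and Gm20754 were likewise not higher in the iBAT members; all 7 were higher in cluster 0 than in clusters 1 and 4. Rbm24, Myocd and Synpo2, which binds actin at the dense bodies, were higher in the members of all 5 libraries. The 10 lowest were Gm30835, Rab27b, Pkhd1, Kcnq1, Nhsl1, Gipr, 9630014M24Rik, Mapt, Pcdh19 and Alpl, with medians from -4.17 to -2.98; 9 of them were higher in the members of no library, and Gm30835 of 1. Kcnq1, a potassium channel, stood at 21.2 CPM in all members and 267 CPM in the pericyte gate, and Gipr, the receptor of the gut hormone GIP, at 3.02 and 151 CPM.

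**Figure D3:**
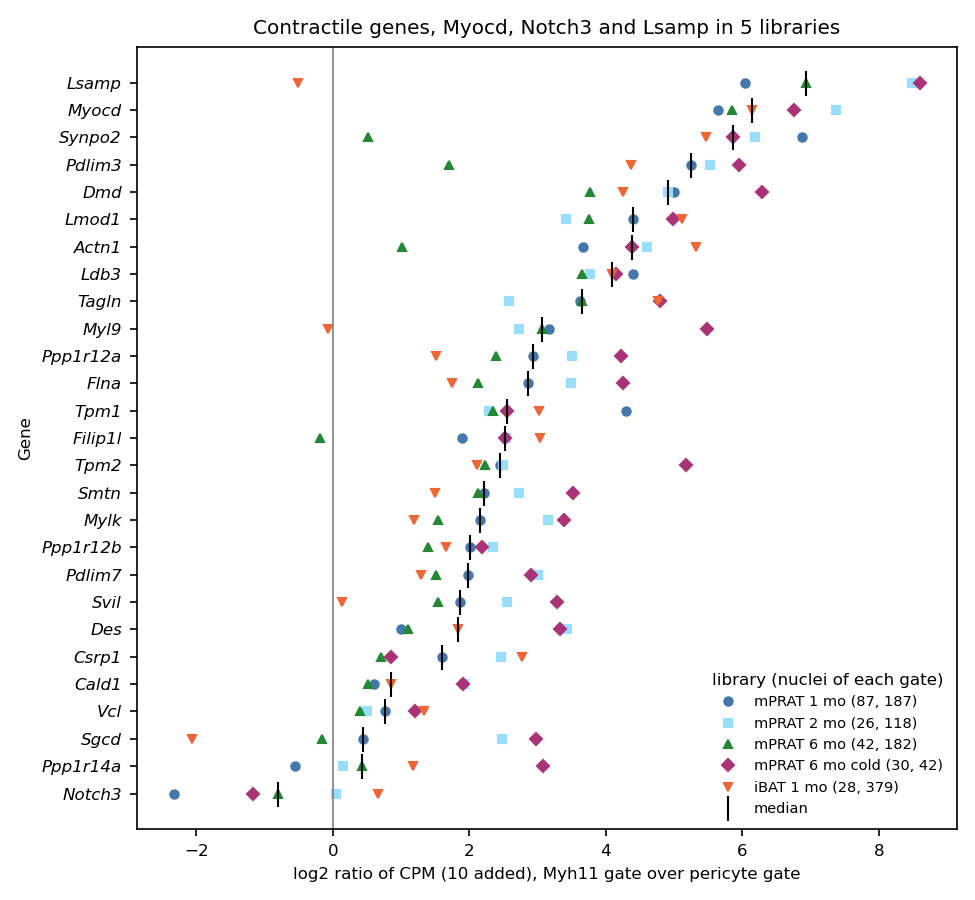
Log2 ratio of CPM (10 added) in the Myh11 gate over the pericyte gate for 24 contractile genes, Myocd, Notch3 and Lsamp, with 1 symbol per library, black bars for the median over 5 libraries, and nuclei of each gate in the key. Myocd lies between 5.65 and 7.37 in every library, Notch3 spans 0, and Lsamp is at -0.51 in iBAT alone.

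Serum response factor, the partner of myocardin, binds the CArG box, an A/T-rich element bracketed by CC and GG that is found near many contractile genes. The RefSeq promoter table (build GRCm38.p6), with 250 bases before and 50 after each start, was searched for CC, then 6 letters each A or T, then GG, a form that reads the same on both strands. It held 25 of the 28 genes made up of the contractile list, Myh11 and Acta2; Myh11, Tagln and Svil were not among them. The box was in a promoter of 5 of the 25 (20%) and of 488 of all 27025 symbols in the table (1.81%). The stretches below are shown because they belong to contractile genes measured in the members. Each runs 5′ to 3′ on the gene's strand with the box in capitals:
Myl9, chr2:156775283-156775332, + strand: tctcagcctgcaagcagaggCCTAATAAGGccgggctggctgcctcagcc
Vcl, chr14:20929151-20929200, + strand: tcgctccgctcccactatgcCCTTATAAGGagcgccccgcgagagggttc
Filip1l, chr16:57549160-57549209, + strand: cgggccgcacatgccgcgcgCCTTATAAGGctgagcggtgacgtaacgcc
Dmd, chrX:82948752-82948801, + strand: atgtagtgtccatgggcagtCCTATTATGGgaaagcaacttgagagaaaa
Ldb3, chr14:34588687-34588736, - strand: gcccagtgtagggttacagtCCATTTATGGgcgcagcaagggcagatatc
The first base of the box lies 161 bases before the start in Myl9, 227 in Vcl, 62 in Filip1l, 98 in Dmd and 35 or 109 in Ldb3, depending on which of its 2 starts is counted. In Filip1l and Dmd 1 of 2 listed starts has it. Against the pericyte gate the 5 genes had median log2 ratios of 3.06 (Myl9), 0.77 (Vcl), 2.53 (Filip1l), 4.91 (Dmd) and 4.09 (Ldb3). A match is a run of letters and not evidence of binding, and a gene without one may carry it outside this window.

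Of 12 pairs of libraries listed for comparison, 3 had at least 20 members on both sides: mPRAT at 6 over 1 months, mPRAT in the cold over 22 °C at 6 months, and mPRAT over iBAT at 1 month. The 2-month mPRAT library, with 26 members, was in no pair of ages and is given as values. A gene with at least 20 UMIs over both libraries counted as past the fold when its ratio of CPM, with 10 CPM added to each, was at least 2-fold and its exact interval excluded no difference. The make-up of the gate by cluster moved with each pair. Cluster 0 held 48 of 87 members at 1 month, 14 of 42 at 6 months and 24 of 30 in the cold, and cluster 3 held 10 of the 42 at 6 months and none of the others. The lymphocyte list in the members stood at 926 CPM at 6 months, 7.10 CPM at 1 month and 24.4 CPM in the cold, and its part in the ratios was not tested. Each pair is therefore followed by the same comparison within clusters, chosen after the clusters were seen.

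In mPRAT cold over 22 °C, 13 of 24 contractile genes stood higher in the cold members, and most of these calls ended without clusters 3 and 5 or without the mitochondrial limit. Mylk was at 2960 CPM in the cold and 914 CPM at 22 °C (log2 ratio 1.69), Lmod1 at 658 and 217 CPM (1.56), the myosin phosphatase subunit Ppp1r12a at 9137 and 3252 CPM (1.49), and Dmd at 10002 and 4543 CPM (1.14). Across the gate 7.81% of 2701 usable genes were past the fold upward and 14.2% downward. Of these genes past the fold, 142 were below all other kept nuclei in the library with the higher level. Ebf1 and Grk5, given in the next paragraph, are among the 142. No contractile gene was lower, and the list's median log2 ratio was 1.02 against -0.19 for all usable genes. Of 16 calcium and ion channel genes 6 were higher and none lower: Atp2b4, Ryr3, Kcnab1, Atp2a2, Cacna1d and Slc8a1. Kcnab1 had 31 UMIs in only 4 nuclei in the cold and 25 UMIs in 9 nuclei at 22 °C. Agtr1a, the only usable constrictor receptor, was at 353 and 102 CPM (1.69), and Pde5a at 682 and 141 CPM (2.20).

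Among 15 transcription regulators Tbx18 was higher (633 and 173 CPM), and Ebf1, Ebf2, Mef2c and Mrtfa were lower, Ebf1 with 451 and 2045 CPM (-2.16). Notch2 was higher and Notch3 lower among 5 Notch genes, Notch3 with 146 and 428 CPM (-1.49). Among 18 growth factor genes Angpt1 was higher, and Cxcl12, Vegfc, Igf1 and Pdgfrb were lower. Cxcl12 had 71 UMIs in 12 nuclei at 22 °C and none in the cold, at least 12.4-fold lower. Plcb4, Itga1 and Zbtb16 were higher, and Arhgap42, Grk5, Gucy1a2 and Vcam1 lower, in the signalling, matrix, clock, dilator and synthetic state lists. By size, the 5 largest ratios upward were Otogl, Kcnip4, Gm31243, Nexn and Pcp4, of which Otogl had 225 UMIs in 16 of 30 nuclei in the cold and 9 UMIs in 5 of 42 at 22 °C. The 5 largest downward were Slc14a2, Pcdh15, Gm16685, Csmd1 and Ccl21a; all 194 UMIs of Slc14a2 came from 1 nucleus at 22 °C, and Csmd1 and Pcdh15 are the leading genes of cluster 3.

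Without clusters 3 and 5, with 29 nuclei in the cold against 31 at 22 °C, 5.99% of 1904 usable genes were higher and 10.7% lower. Of 24 contractile genes 3 were then higher (Mylk, Pdlim3 and Filip1l), with a list median of 0.53, and no calcium and ion channel gene was higher and 1, Ano1, lower (178 and 403 CPM). Of the 50 genes past the fold that were chosen to be named for this pair, 19 were still past the fold and 8 had under 20 UMIs, too few to be counted: Cxcl12, Vegfc, Igf1, Pdgfrb, Vcam1, Pcdh15, Gm16685 and Ccl21a. Genes with enough UMIs that no longer passed included Lmod1 (log2 ratio 0.95), Ppp1r12a (0.88), Dmd (0.48), Slc8a1 (0.58), Notch2 (0.42), Plcb4 (0.65), Zbtb16 (0.97), Arhgap42 (-0.65), Grk5 (-1.09) and Csmd1 (0.24). Agtr1a, Pde5a, Tbx18, Itga1 and Angpt1 still were upward, and Ebf1, Ebf2, Mef2c, Mrtfa, Notch3, Gucy1a2 and Slc14a2 downward.

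Within cluster 0 alone, 24 nuclei in the cold against 14 at 22 °C, fewer genes passed. Of 24 usable contractile genes 1 was past the fold, Filip1l (402 and 103 CPM, 1.87), and the list's median log2 ratio was 0.23 against 0.01 for all usable genes; 5.60% of 1126 genes were higher and 6.22% lower. Mylk was at 3277 and 2224 CPM in cluster 0, Dmd at 10405 and 10544 CPM and Slc8a1 at 10635 and 11409 CPM. None of 14 calcium and ion channel genes passed. Of the 50 named genes 31 had enough UMIs here and 9 still passed. None of the 5 transcription regulators was among them, with Tbx18 at a log2 ratio of 0.94 and the other 4 under 20 UMIs, and Agtr1a (0.90) did not pass either. Otogl (3219 and 165 CPM, 4.21), Kcnip4 (1035 and 41.2 CPM, 4.35), Pcp4 (1.17), Nexn (1.47), Pde5a (762 and 330 CPM, 1.18), Itga1 (1.44) and Angpt1 (1.43) stayed past the fold. Otogl was at 486 CPM in cluster 0 at 1 month and 1614 CPM at 2 months, so its lowest value was at 6 months and 22 °C. Kcnip4 (722 CPM), Pde5a (625 CPM) and Itga1 (1653 CPM, against 886 CPM) were also higher at 1 month than at 6 months and 22 °C. Angpt1 was at 194 and 185 CPM at these ages. The 6-month library at 22 °C is a side of the pair of ages as well as of this pair. Without the mitochondrial limit, which had removed 66.0% of the cold library's barcodes, the contractile median over the whole gate was 0.41 and 28 of the 50 named genes were still past the fold. The share of all usable genes past the fold under this setting is not given here. A loss particular to a list therefore cannot be told from a general fall in calls. Of the 13 contractile genes only Mylk (1.03) was among the 28, and of the 6 calcium and ion channel genes only Ryr3 (1.03). Lmod1 (0.84), Ppp1r12a (0.93), Dmd (0.49), Slc8a1 (0.56) and Itga1 (0.65) were not, whereas all 5 named transcription regulators and all 5 named growth factor genes were; of the latter only Angpt1 had enough UMIs in cluster 0.

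**Figure D4:**
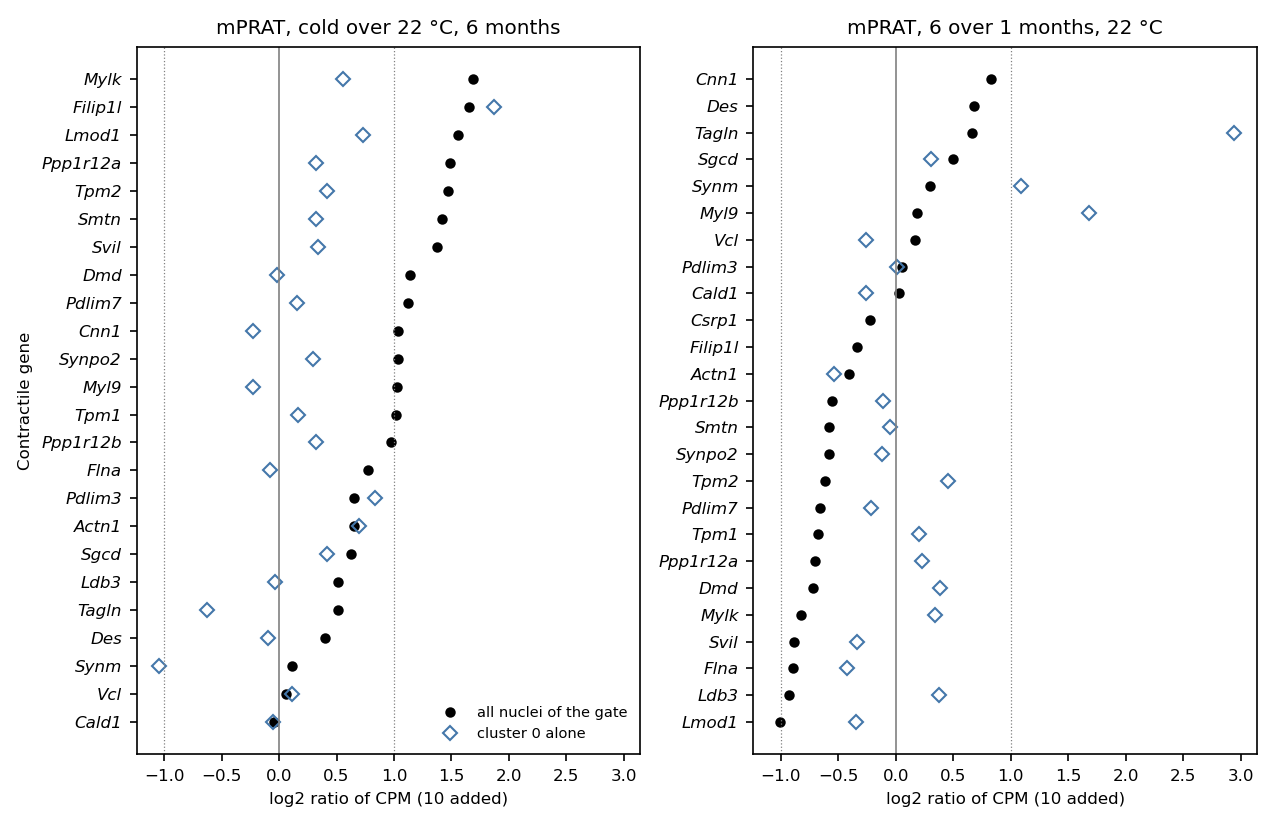
Log2 ratios of CPM (10 added) for the usable contractile genes in mPRAT, left for cold over 22 °C at 6 months and right for 6 over 1 months. Black points use all nuclei of the gate and open diamonds cluster 0 alone, dotted lines mark a 2-fold difference, and a gene with fewer than 20 UMIs in cluster 0 has no diamond. On the left the black points centre at 1.02 and the diamonds at 0.23; on the right they centre at -0.55 and 0.01.

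In mPRAT at 6 over 1 months, 4 of 19 calcium and ion channel genes stood lower in the older members. Cacnb2 was at 2364 CPM at 6 months and 5853 CPM at 1 month (log2 ratio -1.30), with 3442 CPM at 2 months. Cacna1d was at 307 and 945 CPM (-1.59), Ryr3 at 262 and 732 CPM (-1.45) and Kcnab1 at 160 and 1122 CPM (-2.74). Few nuclei carried Kcnab1, which had 25 UMIs in 9 of 42 nuclei at 6 months and 158 UMIs in 15 of 87 at 1 month. Its share of nuclei with a UMI was therefore not lower at 6 months. Over all 3283 usable genes 13.1% were past the fold upward and 8.56% downward. No calcium and ion channel gene was higher, and the list had a median of -0.39 against 0.10 for all usable genes. Of 25 contractile genes 1, Lmod1, was lower and none higher (median -0.55). Of 3 usable constrictor receptors Ednra (51.1 and 128 CPM) and Adra1a (44.7 and 156 CPM) were lower. Adra1a stood higher in all other kept nuclei (296 and 401 CPM). Of the 430 genes past the fold upward and 281 downward, 186 were below all other kept nuclei in the library with the higher level. Adra1a, and Ntrk3, Ebf1, Grk5, Igf1 and Zbtb16 given next, are among the 186.

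Among 16 transcription regulators Myocd (569 and 1264 CPM, -1.14) and Zfhx3 were lower, and Ebf1 and Prrx1 higher. Rock2, a kinase that sustains contraction, was at 569 and 241 CPM (1.20), and Grk5, which switches off receptors, at 268 and 71.0 CPM (1.78); both were higher among 11 signalling genes. Pde5a was lower (141 and 554 CPM), Col3a1 higher, and of 4 synthetic state genes Fn1 and Vcam1 were higher. Among 21 growth factor genes Cxcl12, Vegfc and Igf1 were higher, and Ntrk3 and Smad6 lower. Zbtb16, a glucocorticoid-responsive transcription factor, was at 217 CPM at 6 months and 1761 CPM at 1 month (-2.96), with 1521 CPM at 2 months, and Per2, a clock gene, was also lower. None of 5 Notch genes passed. The 5 largest ratios upward were Csmd1, Dclk1, Pcdh15, Gm16685 and Dnajc6; Csmd1 had 1449 UMIs in 16 of 42 nuclei against 4 UMIs in 2 of 87, and Dclk1 had 210 UMIs in 13 nuclei against none, at least 63.0-fold higher. The 5 largest downward were Gm32647, Lrrtm4, Ndst3, Kcnip4 and Asic2, of which Asic2, an acid-sensing channel, had 4 UMIs in 2 nuclei against 66 UMIs in 24.

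Without clusters 3 and 5, with 31 nuclei against 87, 8.61% of 2612 usable genes were higher and 6.66% lower, and the contractile median was -0.06. Of the 34 named genes 13 were still past the fold: Kcnab1, Cacna1d, Zfhx3, Zbtb16 and Pde5a were lower, Rock2, Grk5 and Col3a1 higher, and the other 5 are given last. Kcnab1 then had 18 UMIs in 8 of 31 nuclei against 158 UMIs in 15 of 87. Tagln (297 and 114 CPM, log2 ratio 1.31), Cnn1 (1.50), Postn (1.08), Mef2c (1.00) and Pde1c (1.02) became higher and Adcy5 (-1.08) lower, so 2 of 24 contractile genes were higher and none lower. Another 11 had under 20 UMIs, too few to be counted: Prrx1 (1.13), Fn1 (0.94), Cxcl12 (1.38), Vegfc (1.01), Igf1 (0.69), Csmd1, Dclk1, Pcdh15, Gm16685, Dnajc6 and Vcam1. Vcam1 then had no UMI on either side, and Dclk1 had 5 UMIs in 3 nuclei against none. The 10 with enough UMIs that no longer passed were Cacnb2 (-0.61), Ryr3 (-0.74), Myocd (-0.42), Lmod1 (-0.35), Ednra (-0.54), Adra1a (-0.98), Ntrk3 (-0.55), Smad6 (-0.99), Ebf1 (0.75) and Per2 (-1.24), whose interval included no difference. The genes with the 5 largest ratios downward all stayed past the fold. Of these, Lrrtm4 rested on 23 UMIs in 3 of 87 nuclei at 1 month and Ndst3 on 22 UMIs in 4.

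Within cluster 0, 14 nuclei at 6 months against 48 at 1 month, the contractile median was 0.01 and the calcium list's -0.11, against -0.11 for all usable genes, with 6.57% of 1188 usable genes higher and 10.7% lower. Cacnb2 stood at 4448 and 4806 CPM and Myocd at 1153 and 1181 CPM. Of the 34 named genes 17 had enough UMIs in cluster 0, and 8 passed the fold there, among them Ebf1 in the opposite direction. Cacnb2, Cacna1d (-0.36), Ryr3 (-0.68), Pde5a (-0.90), Zfhx3 (-0.83) and Rock2 (1.04, with an interval that included no difference) did not, and Kcnab1 and Grk5 had too few UMIs. Tagln was higher at 6 months, with 24 UMIs in 9 of 14 nuclei (494 CPM) against 4 UMIs in 4 of 48 (55.6 CPM), and so was Myl9, the regulatory myosin light chain (556 and 167 CPM); in the cold library they stood at 316 and 474 CPM. Col3a1 (597 and 139 CPM), Rock1 (350 and 153 CPM) and Pde3a (803 and 333 CPM) were higher at 6 months too. Zbtb16 was lower within cluster 0 (371 and 2417 CPM, -2.67), with 1220 CPM at 2 months and 561 CPM in the cold. It also stood at 3311, 1614 and 227 CPM in the iBAT members at 1, 2 and 6 months, and in all other kept nuclei of mPRAT it was at 642 CPM at 6 months and 2209 CPM at 1 month. Kcnip4, Asic2, Igf1r, Ntrk3, Itpr2, Ltbp1, Ebf1 and Ebf2 were lower in cluster 0, Ebf1 with 124 and 458 CPM; over the whole gate Ebf1 had been higher.

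The pair of mPRAT over iBAT at 1 month set different clusters against each other, since 70 of the 87 mPRAT members belonged to clusters 0 and 2 and 25 of the 28 iBAT members to cluster 4. Notch3 was at 405 CPM in mPRAT and 3267 CPM in iBAT (log2 ratio -2.98), Ebf1 at 916 and 7038 CPM (-2.93), and Lsamp at 5483 and 21.9 CPM (7.43). Of 2047 usable genes 14.9% were past the fold upward and 13.8% downward, 305 and 283 genes. Of these genes past the fold, 71 were below all other kept nuclei in the library with the higher level. With edgeR's TMM scaling factors, which add about 0.34 to the log2 ratios of this pair, 426 were higher and 176 lower, so the share of calls that were higher went from 51.9 to 70.8%. Of the 63 named genes 55 were still past the fold under that scaling, and Lama5, Eln, Col4a2, Itgb1, Trpc6, Arhgap42 and Clock were among those that were not. The contractile list had no common direction, with 3 of 22 genes higher (Ppp1r12a, Sgcd and Svil), 2 lower (Vcl and Filip1l) and a median of 0.06. In the members of mPRAT and iBAT the adipocyte list summed to 1207 and 4648 CPM and the pericyte list to 327 and 570 CPM. The pericyte list was at 334 CPM in the pericyte gate itself. The part of these lists in the ratios was not tested.

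Genes of the calcium list went both ways. Cacnb2, Cacna1d, Ryr3, Kcnma1 and Slc8a1 were higher in mPRAT, and genes higher in iBAT included Cacna1c, Ryr2, Trpc6, Stim1 and Ano1, out of 20 usable genes. Cacna1d had 133 UMIs in 46 nuclei from mPRAT and none in iBAT, at least 14.4-fold higher. In the dilator list Pde5a and Calcrl were higher in mPRAT, and Gucy1a1, Gucy1a2, Prkg1, Pde3a and Adcy6 higher in iBAT, of 11 genes. Among 14 matrix and adhesion genes Col3a1, Itga1, Itga9 and Ltbp1 were higher in mPRAT, and Eln, which encodes elastin, Lama5, Col4a2, Col18a1, Itga7 and Itgb1 in iBAT. Of 18 growth factor genes Igf1r and Bmpr1a were higher in mPRAT, and genes higher in iBAT included Ntf3, Tgfb3, Angpt1 and Pdgfrb. In iBAT Tbx2, Tbx5, Ebf2, Ednra, Rock2, Grk5, Arhgap42, Postn and Clock were also higher, and Tbx18, Plcb1 and Prkca were higher in mPRAT. By size, Lsamp, Rbfox3, Dpp6, Unc13c and Cacna2d3 had the largest ratios upward, and Lin7a, Ntn4, Grk5, Tnfrsf21 and Chn1 downward.

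Within clusters 1 and 4 alone the sides were still unequal, with 14 of 17 mPRAT nuclei in cluster 1. Of 693 usable genes 7.94% were higher and 13.3% lower in mPRAT. Of 63 genes named for the pair, 19 were still past the fold, 18 had too few UMIs and 26 did not pass. Notch3 was not past it (1858 and 3267 CPM, log2 ratio -0.81). None of the 5 dilator genes and none of the 6 matrix and adhesion genes that had been higher in iBAT passed, Prkg1 with 10471 and 10546 CPM and Eln with 500.3 and 329 CPM (0.59). Among the 6, Lama5 had 5 and 13 UMIs, too few to be counted. Contractile genes had a median of -0.26 over 14 genes, with Ldb3 higher and Vcl lower. Cacnb2 (5468 and 1995 CPM) and Slc8a1 (3645 and 1250 CPM) remained higher in mPRAT, and Grk5 (71.5 and 1206 CPM), Postn (143 and 1337 CPM) and Ebf2 (250 and 1469 CPM) higher in iBAT. With cluster 4 taken alone over all ages and temperatures, 16 nuclei from mPRAT and 36 from iBAT, the counting intervals of Cacnb2 (1389 and 1218 CPM), Slc8a1 (976 and 1237 CPM), Postn (1614 and 1748 CPM) and Ebf2 (1427 and 1827 CPM) overlapped between the depots. The mPRAT nuclei were 3 at 1 month, 7 at 2 months, 5 at 6 months and 1 in the cold, and those of iBAT 25, 10, 0 and 1. Age and depot therefore cannot be told apart here. The named genes were also chosen from the 1-month pair, which holds 25 of these 36 iBAT nuclei. Among the named genes, Grk5 (901 CPM, 577 to 1341, and 1689 CPM, 1351 to 2086), Cacna1c (6270 and 9624 CPM) and Col18a1 (37.5 and 393 CPM) did not overlap and were higher in iBAT. Bmpr1a (451 and 98.2 CPM) did not overlap and was higher in mPRAT. The other named genes overlapped. The share of all genes that overlap was not taken, and intervals from so few nuclei are wide. Overlap here therefore does not show that the depots are alike.

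Pairs with fewer than 20 members on a side are given as values. In iWAT, the 9 members in the cold had Notch3 in 8 nuclei (1664 CPM), and the 15 at 22 °C in 8 nuclei (368 CPM). Dmd was at 14888 and 1773 CPM and Myocd at 540 and 207 CPM in these libraries, of which 8 of 9 and 6 of 15 nuclei belonged to cluster 1. In iBAT at 6 months, the 4 members at 22 °C and the 3 in the cold all had Notch3, at 529 and 4941 CPM.

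Markers of other cell types differed by cluster. The 8 endothelial genes outside the gate summed to 349 CPM in the members, with Kdr at 0, and to 6974 CPM in the endothelial gate. The 9 adipocyte genes outside the gate summed to 1916 CPM in the members and 9412 CPM in all other nuclei, with a range from 332 CPM in cluster 5 to 4871 CPM in cluster 4. Among 8 visceral smooth muscle markers Chrm2, Foxf2 and Tacr2 had no UMI. The list summed to 612 CPM in cluster 0, 889 CPM in cluster 1 and 273 CPM in cluster 2; Hpse2 made up 813 CPM of the value in cluster 1. The part of these transcripts in the results was not tested. Ren1, the renin gene of juxtaglomerular cells, had no UMI in any member. Of 8 dividing-cell genes none reached 20 UMIs, with none for Mki67 and 3 UMIs for Top2a. Nuclei with the highest doublet scores numbered 15 of the 264, and removing such nuclei moved the share in mPRAT from 0.692 to 0.699%.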

How the data were processed

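The deposited matrices hold raw UMI counts per gene and barcode; per the submitters' processing notes they were made with Cell Ranger 7.0.0 on mm10. The annotation and the counting of intronic reads are not given in the sources used here. The labels' protocols describe 10x 3′ libraries of sorted nuclei. Scripts (Python 3.11.15, scanpy 1.11.5) applied the gate, summed members' counts by library and scaled them to CPM. Clusters used 1000 variable genes, 15 principal components, 15 neighbours and Leiden resolution 0.5. Counting intervals were exact Clopper-Pearson, Poisson and conditional binomial intervals at 95%, which assume independent molecules. No model was fitted, and the only p-values are from an exact sign-flip test of the share in the cold, paired by depot and added after the data were seen; edgeR 4.0.16 gave alternative scaling factors only. The comparison code recovered known changes in simulated counts of independent molecules, the model that the intervals assume. The simulation had no clumping of counts within nuclei and no clusters, so it does not test the calls on these data. Doublets were kept in the main values; an alternative removed the highest scrublet scores, 0.8% per 1000 nuclei. Named genes were the list genes past the fold and the 5 largest ratios each way that were not below the other nuclei's level; against the pericyte gate, the 10 highest and lowest medians and the list genes. The members and lists were chosen with earlier results of these data known. A few list genes past the fold are not reported here.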

Additional observations from a re-analysis of the deposited data

How the results depend on the processing

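The share of kept nuclei moved beyond its counting interval as follows. Under the stricter gate (at least 4 UMIs of Myh11 and Acta2, with 2 of Myh11) it was 0.497% in mPRAT, 0.0537% in iBAT and 0.0216% in lPRAT. With these UMIs at least 3 times the pericyte genes' it was 0.0589% in iBAT, and in mPRAT 0.537% without the mitochondrial limit and 0.459% without the 1-month library. After thinning to 1000 UMIs it was 0.532% in mPRAT and 0.0817% in iWAT. As a share of vessel-wall gates it was 11.7% in mPRAT, 1.44% in iBAT, 3.40% in iWAT and 2.13% in lPRAT. mPRAT was highest under each.

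The contractile median of cold over 22 °C was 0.41 without the mitochondrial limit, 0.60 as a mean over single nuclei, 0.53 without clusters 3 and 5 and 0.23 in cluster 0 alone. The cause was not tested. Over all alternatives that median lay between -0.67 and 0.01 for 6 over 1 months and between -0.26 and 0.40 for mPRAT over iBAT. Counts of genes moved with the number of genes and nuclei used. TMM factors added about -0.11 to the log2 ratios of 6 over 1 months and 0.046 to those of the cold. For 6 over 1 months they were 653 higher with a minimum of 10 UMIs, 785 higher and 472 lower with at least 1 UMI, 225 and 174 without clusters 3 and 5, and 78 and 127 in cluster 0, against 430 and 281. For cold they were 428 and 604 with at least 1 UMI, 114 and 203 without clusters 3 and 5, and 63 and 70 in cluster 0, against 211 and 384. For mPRAT over iBAT, 283 lower became 176 with TMM factors and 572 with at least 1 UMI, and clusters 1 and 4 alone gave 55 higher and 92 lower.

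Genes that changed sign were Ednra (0.16) at 6 over 1 months and Cnn1 (-0.78) in the cold, as means over nuclei; in cluster 0, Smad6 (0.079) and Ebf1 (-1.81) by age and Myl9 (-0.23), Cnn1 (-0.23), Slc8a1 (-0.10) and Dmd (-0.019) in the cold; Csmd1 (0.24) in the cold without clusters 3 and 5; Gucy1a1 (0.12), Eln (0.59), Ntf3 (0.62), Pde3a (0.22), Trpc6 (0.90) and Itga1 (-0.078) by depot in clusters 1 and 4; and Ebf1 (0.50) against pericytes without the mitochondrial limit. By replicate number no paired analysis was possible because each group holds 1 library; the only pairing run was by depot, for the share in the cold (exact sign-flip p 0.25, smallest possible 0.25). Limits on clusters were added after the data were seen. Levels near 3 UMIs of a library's members, 19.2 CPM in mPRAT at 6 months and 371 CPM in iBAT in the cold, are not detectable.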
